A study of Mus musculus with 4 samples.

Results

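The accessible chromatin of 8 genes of interferon and JAK-STAT signalling was examined in natural killer (NK) cells, out of 21755 protein-coding genes on the autosomes and chromosome X. The genes were chosen by name: the receptor chains Ifnar1, Ifnar2, Ifngr1 and Ifngr2, the signal transducers Stat2, Irf9 and Stat3, and the inhibitor Socs3. Chromatin was profiled by DNase-seq, in which the nuclease DNase I cuts accessible DNA, in primary NK cells of female, virgin B6CASTF1/J mice aged 2 months, the F1 offspring of B6 and CAST mice. All 4 libraries, biological replicates 1 to 4, belong to this 1 group, so no treatment or genotype was compared. Each library has its own biosample, but all share 1 donor identifier, so the SD over libraries may be partly technical, and neither the tissue nor the sort of the cells is given in the labels.

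Type I interferons bind a receptor of IFNAR1 and IFNAR2, and interferon gamma, which NK cells themselves secrete, binds a receptor of IFNGR1 and IFNGR2. JAK kinases on these chains phosphorylate STAT proteins. STAT2 and IRF9 act in a complex that binds the interferon-stimulated response element (ISRE), STAT3 dimers bind the gamma-activated sequence (GAS), and SOCS3, itself a STAT3 target, inhibits JAKs at several cytokine receptors.

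Each library has a list of peaks with 1 signal value a peak, given by the authors on a scale that the sources used here do not state. A region is called recurrent where peaks that touch or overlap were found in at least 3 of the 4 libraries, and the promoter signal of a gene is its highest peak within 1 kb of the gene's 5' end, or 0 without a peak. The libraries had 44113, 47496, 69168 and 36285 peaks in replicates 1 to 4, and the median promoter signal of genes with a peak in all 4 was 4.05, 5.17, 6.33 and 3.87. Of 12 marker genes of NK cells, 7 had a recurrent promoter region, among them Ncr1 and Prf1, where 50.3% of all protein-coding genes had one. Klrb1c and Gzma had a promoter peak in replicate 3 alone, and Klrd1, Klrk1 and Tbx21 in 2 libraries each. A recurrent promoter region was found at 4 of 6 B cell, 2 of 6 erythroid, 1 of 6 T cell and 0 of 6 myeloid markers. These counts do not set the NK list apart from the B cell list. The summed signal of the 12 NK markers was 24.4, 27.3, 65.5 and 22.7 in replicates 1 to 4. That of the 6 B cell markers was 3.56, 7.42, 1.73 and 5.43. The sums are over lists of unequal length and are not scaled to the number of genes. Cd3e, Cd4, Cd8a and Csf1r had no promoter peak in any library. In the same T cell and myeloid lists, Cd3g had a peak in 3 libraries, Cd5 in 2 and Itgax in 1. The B cell genes Pax5 and Ebf1 had a peak in all 4. The part of other cells in the signals below was not tested. In bulk libraries, a change in the number of cells of a type and in the accessibility of each cell cannot be told apart.

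All 8 genes had a promoter peak in all 4 libraries, as did 10351 of all 21755 protein-coding genes. A recurrent promoter region, in at least 3 libraries, was found at 50.3% of all protein-coding genes. The levels of the 8 genes covered the whole range of accessible promoters. Ifngr1, Ifnar1 and Stat3 were among the highest 10% of all genes. Stat2, Irf9 and Socs3 lay in the middle, and Ifnar2 and Ifngr2 near the low end. The median of the 8 mean signals was 6.82, against 4.87 for the 10351 genes with a promoter peak in all 4 libraries and 0.407 for all genes. Replicate 3 had the highest value at all 8 genes. After division by the median promoter signal of each library, it was highest at 3 of them. Without replicate 3 the median of the 8 genes was 5.96. The signals are the authors' values and are set side by side between libraries only with the limit that their scale is not stated.

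**Figure D1:**
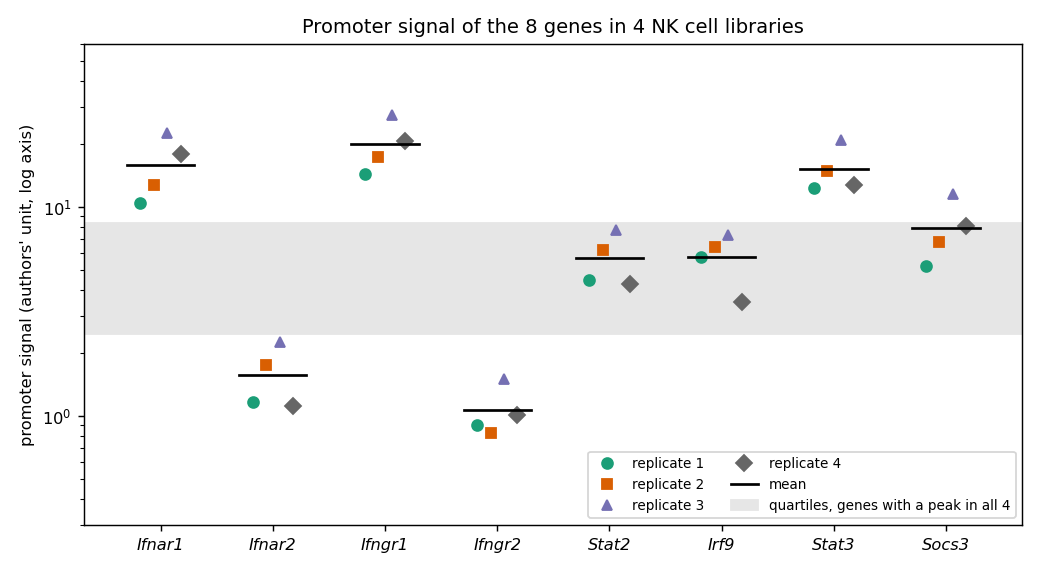
Promoter signal of each gene in each library, on a log axis in the authors' unit, with the mean as a bar. The grey band spans the lower to the upper quartile, 2.44 to 8.33, of the genes with a promoter peak in all 4 libraries; Ifngr1, Ifnar1 and Stat3 lie above it in every library, and Ifnar2 and Ifngr2 below it in every library.

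The upstream part of each main promoter region, at most 300 bases long, shows what DNase I found accessible. It ends at or before the gene's 5' end or, at Socs3, the start of the coding transcript. Capitals mark bases that lay in a footprint, a short stretch protected from cutting, in at least 3 libraries. The sequences are the B6 reference on the GENCODE gene strand, 5' to 3', from GRCm38 (mm10), so they do not show the CAST allele. They come from chr16:91484941-91485160 (Ifnar1), chr16:91372681-91372782 (Ifnar2), chr10:19591721-19591948 (Ifngr1), chr16:91546418-91546717 (Ifngr2), chr10:128270321-128270558 (Stat2), chr11:100939541-100939840 (Stat3, minus strand) and chr11:117969187-117969460 (Socs3, minus strand, upstream of the coding transcript). The limit of 300 bases leaves out the far end of the Ifngr2 and Stat3 regions. Irf9 is left out of this set because its region begins inside the annotated gene. The Socs3 sequence also lies inside the annotated gene, and was kept with the start of the coding transcript Socs3-201 as its end. It holds the start of the non-coding transcript Socs3-203.
Ifnar1 promoter: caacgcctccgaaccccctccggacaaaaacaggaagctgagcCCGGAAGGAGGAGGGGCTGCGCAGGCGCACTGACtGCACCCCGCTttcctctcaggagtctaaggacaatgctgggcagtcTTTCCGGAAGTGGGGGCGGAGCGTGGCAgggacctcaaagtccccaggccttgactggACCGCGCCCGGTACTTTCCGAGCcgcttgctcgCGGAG
Ifnar2 promoter: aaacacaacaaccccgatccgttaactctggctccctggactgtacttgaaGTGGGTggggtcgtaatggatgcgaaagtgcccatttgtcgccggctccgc
Ifngr1 promoter: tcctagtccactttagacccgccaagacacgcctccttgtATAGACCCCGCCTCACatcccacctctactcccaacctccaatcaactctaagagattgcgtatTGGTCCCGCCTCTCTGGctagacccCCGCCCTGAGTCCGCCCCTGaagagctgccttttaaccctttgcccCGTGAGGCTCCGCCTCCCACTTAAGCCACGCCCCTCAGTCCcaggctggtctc
Ifngr2 promoter: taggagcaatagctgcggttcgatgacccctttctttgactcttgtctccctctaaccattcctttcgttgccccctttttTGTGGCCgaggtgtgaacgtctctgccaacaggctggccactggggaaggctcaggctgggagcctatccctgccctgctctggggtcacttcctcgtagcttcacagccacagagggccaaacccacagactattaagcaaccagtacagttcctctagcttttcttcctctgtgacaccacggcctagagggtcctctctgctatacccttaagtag
Stat2 promoter: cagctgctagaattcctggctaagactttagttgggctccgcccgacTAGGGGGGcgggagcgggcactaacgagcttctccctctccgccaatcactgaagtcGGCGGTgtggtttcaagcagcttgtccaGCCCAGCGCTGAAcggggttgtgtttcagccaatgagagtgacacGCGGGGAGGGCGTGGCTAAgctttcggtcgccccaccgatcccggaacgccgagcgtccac
Stat3 promoter: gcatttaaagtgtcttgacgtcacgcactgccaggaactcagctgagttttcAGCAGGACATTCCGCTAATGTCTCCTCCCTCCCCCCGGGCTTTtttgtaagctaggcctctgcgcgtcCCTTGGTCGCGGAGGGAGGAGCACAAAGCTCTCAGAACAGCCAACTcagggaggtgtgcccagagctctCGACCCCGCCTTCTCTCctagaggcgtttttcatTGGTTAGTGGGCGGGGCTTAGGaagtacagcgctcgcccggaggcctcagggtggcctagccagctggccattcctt
Socs3 promoter: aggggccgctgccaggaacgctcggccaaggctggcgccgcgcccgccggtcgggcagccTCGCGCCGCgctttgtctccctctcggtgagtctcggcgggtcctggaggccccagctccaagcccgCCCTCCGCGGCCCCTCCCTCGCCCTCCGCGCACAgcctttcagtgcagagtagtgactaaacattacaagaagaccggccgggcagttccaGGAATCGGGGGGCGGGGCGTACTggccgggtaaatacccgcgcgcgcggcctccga

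The recurrent footprints counted below are footprints that touch or overlap in at least 3 libraries, merged, and can be wider than the capitals. Of the printed bases, which are not always the whole region, the share in capitals was 45.5% at Ifnar1, 42.7% at Stat3 and 41.2% at Ifngr1, and 24.1% at Socs3 and 19.3% at Stat2. At Ifnar2 it was 5.88% and at Ifngr2 2.33%, or 6 and 7 bases. The signal was lowest at the same 2 genes, and its part in whether footprints were called was not tested.

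The interferon gamma receptor chains lay at opposite ends of the range. Ifngr1, the ligand-binding chain, had a promoter signal of 14.4, 17.3, 27.3 and 20.7 in replicates 1 to 4, a mean of 19.9 ± 5.56 (SD, n = 4). That placed it at rank 69 of all genes, above 99.7% of them. Ifngr2, the signalling chain that carries JAK2, had 0.905, 0.826, 1.503 and 1.01, a mean of 1.06 ± 0.304 (SD, n = 4), above 55.6% of all genes and above 7.10% of the genes accessible in all 4 libraries. Each value of Ifngr1 lay above every library of Ifngr2, and the ratio within a library was 15.9, 20.9, 18.2 and 20.5, a mean of 18.9 ± 2.32 (SD, n = 4).

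The type I receptor chains differed in the same way. Ifnar1, the low-affinity chain of the receptor, had 10.4, 12.7, 22.6 and 17.8 in replicates 1 to 4, a mean of 15.9 ± 5.44 (SD, n = 4) that was above 98.6% of all genes. Ifnar2, the chain that binds interferon with high affinity, had 1.16, 1.75, 2.25 and 1.11, a mean of 1.57 ± 0.538 (SD, n = 4), above 59.1% of all genes and 14.2% of those with a peak in all 4. The groups of values did not overlap, and the ratio of Ifnar1 to Ifnar2 within a library was 8.94, 7.24, 10.03 and 15.97, a mean of 10.5 ± 3.79 (SD, n = 4). On the log2 scale, Ifngr1 exceeded Ifngr2 by 4.23 ± 0.18 and Ifnar1 exceeded Ifnar2 by 3.33 ± 0.48 (SD, n = 4), in 4 of 4 libraries. In a two-sided exact sign-flip permutation test each gave p = 0.125, also after Benjamini-Hochberg adjustment over 3 pairs, which is the smallest p that 4 libraries allow, so the design cannot reach 0.05. A level of promoter accessibility is not a level of mRNA or protein.

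**Figure D2:**
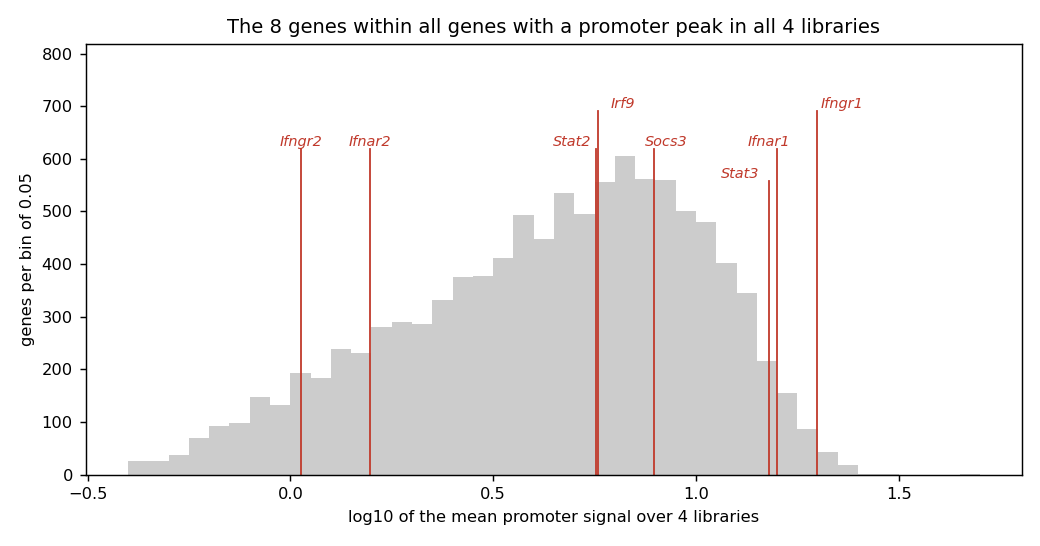
The grey bars count the 10351 genes with a promoter peak in all 4 libraries by log10 of their mean promoter signal, in bins of 0.05, and the red lines mark the 8 genes. Ifngr2 and Ifnar2 lie in the lower tail, at means of 1.06 and 1.57, and Stat3, Ifnar1 and Ifngr1 in the upper tail, at 15.1, 15.9 and 19.9.

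The receptor promoters also differed in where the accessible region lay. At Ifnar1 the region spanned 220 bp and its centre lay 187 bp upstream of the gene's 5' end, with 6 recurrent footprints. At Ifngr1 the region of 320 bp lay over the 5' end and had 5. At Ifnar2 it was broader and weaker, 720 bp from chr16:91372681-91373400, and held 2. Ifngr2 differed from the other chains, since its recurrent region, chr16:91546346-91546717, had its centre 540 bp upstream of the 5' end. Within 100 bp of the Ifngr2 5' end only replicate 3 had a peak, of 0.698. At Ifnar1, too, only replicate 3 had a peak within 100 bp of the 5' end, of 22.6. The 2 genes differed there in bases with a false discovery rate (FDR) below 0.05. Ifnar1 had 201 in each of the 4 libraries, and Ifngr2 had 0, 0, 161 and 0 in replicates 1 to 4. The RefSeq promoter window of Ifngr2 on GRCm38.p6, of 300 bases around the start, holds 4 matches to GGGCGG, a box bound by SP and KLF factors that 35.9% of 32619 such windows held, and the accessible region lies upstream of that window. With the authors' shorter peak list, Ifngr2 had no recurrent promoter region and the count of accessible promoters was 7 of 8.

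The footprints at the strong receptor promoters covered motif letters. Motifs were searched on both strands as exact letters, and a match counted as covered where a footprint held at least 80% of it. Ifnar1 had 2 matches to the ETS motif CCGGAAG, 1 covered in 3 libraries and 1 in all 4, and a match to GGGCGG covered in all 4. Ifngr1 had 2 matches to GGGCGG on its minus strand, each covered in all 4 libraries. Within 200 bp at the region centre, GGGCGG is common, at 9 of 19 promoter regions in the loci and 54.8% of all 12975 recurrent promoter regions, and ETS letters were held by 2 of 19 and 14.0%. The central 200 bp of the 9 promoter regions of the 8 genes had a median GC content of 60.5% and 12 CpG dinucleotides, against 64.5% and 16 for all recurrent promoter regions. A match describes letters and does not show which factor was bound.

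STAT2 and IRF9, which act in 1 complex, had promoter signals that overlapped in the 4 libraries. Stat2 had 4.44, 6.23, 7.74 and 4.29 in replicates 1 to 4, a mean of 5.68 ± 1.64 (SD, n = 4), above 79.3% of all genes. Irf9 had 5.77, 6.44, 7.29 and 3.49, a mean of 5.75 ± 1.63 (SD, n = 4), above 79.6%. Their neighbours in the order of the 8 genes, Socs3 above and Ifnar2 below, overlapped them in the first case and not in the second. Within 200 bp at the centre of their regions, neither held the ISRE core letters GAAANNGAA, which 1 of 19 promoter regions in the loci and 3.84% of all recurrent promoter regions held. The RefSeq promoter window of Stat2 held 1 such match, as did 8.53% of all such windows at least once, and it lies outside the accessible region.

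At Irf9 the accessible region did not lie at the gene's 5' end. The most upstream annotated start, of Irf9-203, had no peak within 100 bp in any library. The region of 240 bp, chr14:55603981-55604220, spanned the start of Irf9-202, 414 bp downstream, also a coding transcript. It lies in an annotated UTR but upstream of the RefSeq promoter window of Irf9, chr14:55604329-55604628. The region held a GAS match, covered by a footprint in 1 library. The site is shown on the plus strand at chr14:55604114-55604143, with the GAS letters in capitals, beside the GAS match of the Ifnar2 region at chr16:91373150-91373179, which no footprint covered.
Irf9 GAS site: accacgtggtTTCTAGGAAatgcacctccc
Ifnar2 GAS site: ccgctgccagTTCCCGGAAtccccttttca

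Stat3 had the third highest promoter of the 8 genes. Its signal was 12.2, 14.9, 20.8 and 12.7 in replicates 1 to 4, a mean of 15.1 ± 3.91 (SD, n = 4), at rank 371 and above 98.3% of all genes. Ifngr1 exceeded it in each library, by ratios of 1.18, 1.16, 1.32 and 1.63 (exact permutation p = 0.125, the smallest possible, n = 4), although the ranges of the genes overlapped. Ifnar1 and Stat3 also overlapped. The Stat3 region spanned 500 bp and held 7 recurrent footprints, the most of the 50 recurrent regions of the 8 loci together with a region at Il10rb. A GGGCGG match 67 bp upstream of the 5' end was covered in all 4 libraries, and a CRE match, TGACGTCA, in 1.

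Socs3 had 2 promoter regions. The stronger had a signal of 5.22, 6.76, 11.5 and 8.06 in replicates 1 to 4, a mean of 7.88 ± 2.67 (SD, n = 4), above 86.9% of all genes. It spanned chr11:117969141-117969460, over the start of the coding transcript Socs3-201, which lies 861 bp inside the annotated gene. The other lay at the gene's 5' end, where only the non-coding transcript Socs3-202 starts, and had 5.14, 6.71, 7.62 and 4.65, a mean of 6.03 ± 1.38 (SD, n = 4). The values of the 2 regions overlapped.

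A GAS match lay just upstream of the Socs3 coding start, in the stronger region. It is shown on the minus strand at chr11:117969229-117969258 with its letters in capitals.
Socs3 GAS site: cggccgggcagTTCCAGGAAtcggggggcg
In the longer Socs3 sequence above, the end of this match was in footprints of at least 3 libraries and its first bases were not, so that no library reached 80% of it. A GGGCGG match beside it was covered in all 4 libraries. GAS letters, TTCNNNGAA, were held by 2 of 19 promoter regions in the loci within 200 bp at the centre and by 3.75% of all recurrent promoter regions. GAS and ETS letters can overlap, as they did in the region 17891 bp upstream of Stat3.

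The 8 loci, taken as gene body and 25 kb on either side, held 96 merged regions, of which 50 were recurrent and 42 were found in all 4 libraries. Over all the chromosomes used, 36595 of 78144 merged regions were recurrent, and the difference in share was not tested. Of the recurrent regions, 9 were promoters of the 8 genes, 10 were promoters of neighbouring genes and 31 were distal, more than 1 kb from the 5' end of any protein-coding gene. The 46 others included 34 found in 1 library, 25 of them in replicate 3 alone. The loci had a mean of 4.125 distal regions, counting regions shared by overlapping loci in each, against 1.65 over the loci of all genes (median 5 against 1), without matching for locus length. The median signal of the 31 distal regions was 1.71, against 1.12 for all 23620 recurrent distal regions. Ifnar1 and Ifngr1 had 6 distal regions each, Ifnar2 and Stat3 5, Socs3 4, Ifngr2 3, and Stat2 and Irf9 1 each, with 2 regions shared by the Ifnar1 and Ifngr2 loci counted under Ifnar1.

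**Figure D3:**
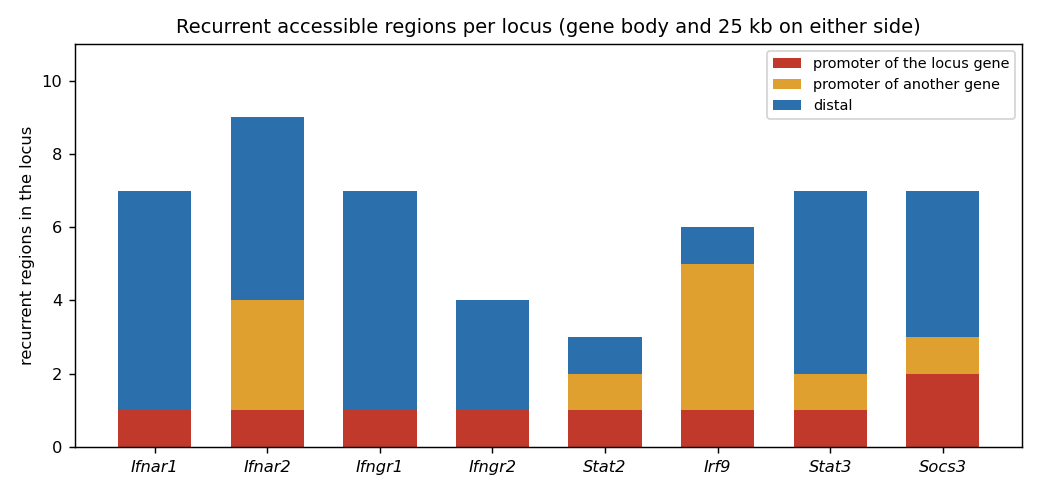
Recurrent regions in each locus, stacked by kind. Distal regions number 6 at Ifnar1 and Ifngr1 but 1 at Stat2 and Irf9, where most recurrent regions are promoters.

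The strongest distal region of the 8 loci lay downstream of Socs3. It lay beyond the gene's 3' end and had a signal of 9.45, 10.9, 15.9 and 5.62 in replicates 1 to 4, a mean of 10.5 ± 4.27 (SD, n = 4). This was above 99.1% of all recurrent distal regions and 1.33 times the mean of the Socs3 promoter, although the values of the 2 regions overlapped across libraries. In replicate 4 the order was reversed, with 5.62 at the distal region and 8.06 at the promoter. The central 200 bp of this distal region had a GC content of 68% and 22 CpG dinucleotides. The medians were 52% and 4 for all recurrent distal regions, and 64.5% and 16 for all recurrent promoter regions. The other strong distal region of the locus, chr11:117965581-117965880, had 3.17, 3.96, 9.97 and 4.44, a mean of 5.38 ± 3.10 (SD, n = 4), and held a GAS match that no footprint covered.

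Stat3 had a strong distal region inside the gene, 45919 bp from the 5' end. Its signal was 4.23, 4.88, 5.85 and 3.17 in replicates 1 to 4, a mean of 4.53 ± 1.12 (SD, n = 4), above 94.2% of recurrent distal regions. It lies in an exon of retained-intron transcripts and within 100 bp of the annotated starts of 2 of them, Stat3-210 and Stat3-213. The region held 4 recurrent footprints. The sequence is shown on the minus strand at chr11:100893521-100893720, with bases in footprints of at least 3 libraries in capitals.
Stat3 gene-body region: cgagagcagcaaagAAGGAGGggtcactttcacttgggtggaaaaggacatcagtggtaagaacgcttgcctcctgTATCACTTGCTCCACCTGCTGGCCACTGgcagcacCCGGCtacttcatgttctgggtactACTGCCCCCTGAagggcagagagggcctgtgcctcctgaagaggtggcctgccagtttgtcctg
The next highest mean, in an intron 5289 bp from the 5' end, was 1.399 ± 0.947 (SD, n = 4). Without replicate 3 it was 0.927, below the 1.01 of another intron region 7809 bp from the 5' end.

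The intron region of Stat3 at 7809 bp held overlapping IRF motifs. The letters GAAAGNGAA occurred 2 times in tandem on the minus strand, at chr11:100931770-100931799, and were covered by a footprint in 1 library.
Stat3 tandem IRF site: cggagctaGAAAGAGAAAGTGAAacttgta
The region was weak, at 1.22, 1.32, 1.57 and 0.4997 in replicates 1 to 4. These letters were held by 1 of the 31 distal regions within 200 bp at the centre and by 1.96% of all recurrent distal regions. ISRE core letters, which include the IRF pair, were held by 3 of 31 and 6.18% in the same window.

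**Figure D4:**
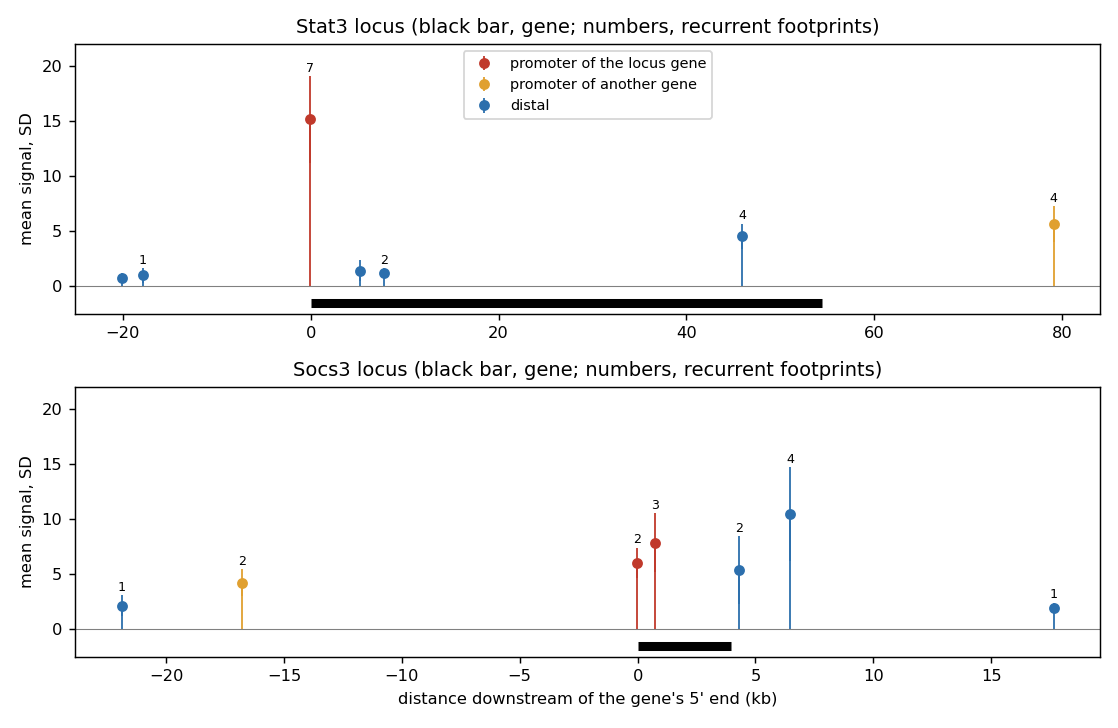
Mean signal of each recurrent region, with the SD over 4 libraries, against the distance of its centre from the gene's 5' end in kb, positive downstream. The black bar is the gene and the numbers count recurrent footprints; at Socs3 the distal region with a mean of 10.5 stands above both promoter regions, and at Stat3 the promoter, at 15.1, stands above all others.

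The genes Ifnar2, Il10rb, Ifnar1 and Ifngr2 follow each other on chromosome 16 within 193 kb, all on the plus strand. In the loci of the 3 interferon receptor genes there, 20 recurrent regions were found, 14 of them distal, and the Ifnar1 promoter had the highest signal. The 2 strongest distal regions lay upstream of Ifnar1. The first, chr16:91464741-91465180, lies at the starts of the non-coding genes A930006K02Rik and Gm49625, had 3.36, 3.73, 6.77 and 5.11 in replicates 1 to 4 and averaged 4.74 ± 1.55 (SD, n = 4). The second, 9247 bp upstream of Ifnar1, averaged 3.65 ± 1.67 (SD, n = 4).

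**Figure D5:**
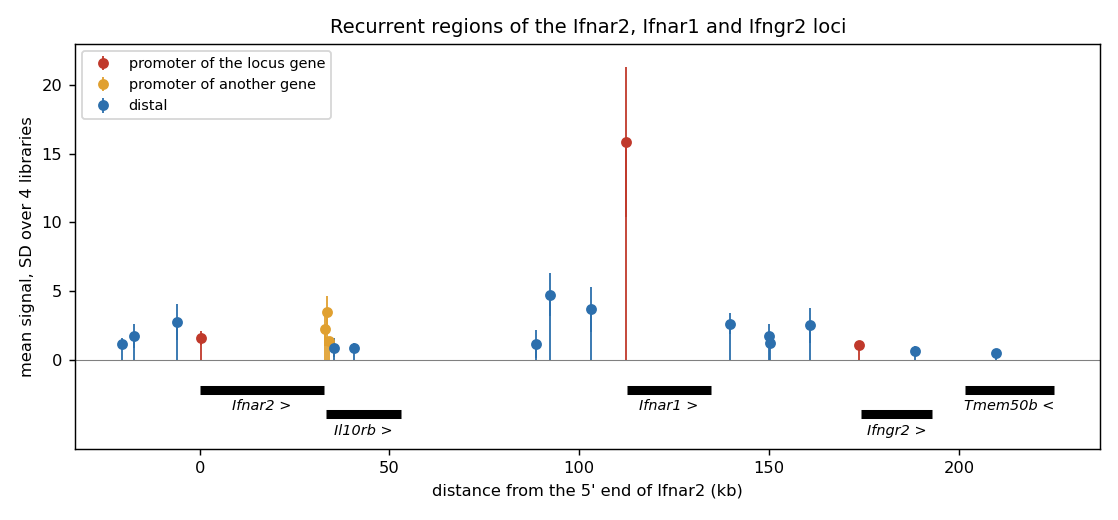
Mean signal, with the SD over 4 libraries, of the 20 recurrent regions of the Ifnar2, Ifnar1 and Ifngr2 loci by distance from the 5' end of Ifnar2 in kb; gene bodies are black bars and arrowheads give the strand. The Ifnar1 promoter, at 15.9, stands apart from the other regions, none of which has a mean above 4.74.

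The strongest distal regions of Ifnar2 and Ifngr2 had higher mean signals than the genes' own promoters. A region 5992 bp upstream of Ifnar2 had 2.06, 2.15, 4.72 and 2.11 in replicates 1 to 4, which was 1.76 times the promoter on average. A region 17363 bp upstream averaged 1.71 ± 0.854 (SD, n = 4). Without replicate 3 the latter averaged 1.31, against 1.34 for the Ifnar2 promoter. At Ifngr2 a broad region of 1040 bp, 13471 bp upstream, had 1.61, 2.21, 4.39 and 1.84, which was 2.37 times the promoter on average, and each library was above every promoter value of the gene. The next, in an intron of Ifngr2, averaged 0.597 ± 0.403 (SD, n = 4) and had no peak in replicate 4. Il10rb, the chain shared by the receptors of interleukin 10 and interferon lambda, had promoter signals of 2.02, 3.02, 4.45 and 4.32.

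At Ifngr1, on chromosome 10, the 2 distal regions with the highest means lay upstream. The region 9538 bp from the 5' end had 2.51, 2.28, 4.99 and 1.24 in replicates 1 to 4. The region 14011 bp away had 1.93, 1.43, 5.71 and 1.26, a mean of 2.58 ± 2.11 (SD, n = 4), or 1.54 without replicate 3. Its place as the second highest rests on that library, since without it an intron region of Ifngr1, 9742 bp downstream of the 5' end, averaged 1.81. The upstream pair averaged 0.138 and 0.130 times the Ifngr1 promoter.

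In the Stat2 locus the strongest region lay at the promoter of another gene, and in the Irf9 locus it lay at the promoter of Irf9. The region at Pan2, a subunit of an mRNA deadenylase, had 14.5, 16.9, 27.4 and 16.5 in replicates 1 to 4 in the Stat2 locus, 3.32 times the Stat2 promoter on average. In the Irf9 locus, a region shared by Psme2, a proteasome activator subunit, and Rnf31, a ubiquitin ligase, averaged 4.37 ± 1.296 (SD, n = 4). This was 0.759 times the Irf9 promoter. Regions at Psme1 and Emc9 averaged 2.38 ± 0.657 and 1.96 ± 0.671 (SD, n = 4), also below the Irf9 promoter. Psme1 also had a weaker region of 1.07. The merged regions at Stat5a in the Stat3 locus and at Pgs1 in the Socs3 locus averaged 5.63 ± 1.65 and 4.25 ± 1.22 (SD, n = 4). The Stat5a promoter signal, from peaks within 1 kb of its 5' end, was 3.68, 0.856, 7.67 and 5.30 in replicates 1 to 4.

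The single distal regions of Stat2 and Irf9 shared a motif. Both held a match to the consensus of CTCF, a factor that marks loop anchors, covered by footprints in 3 libraries at Stat2 and in all 4 at Irf9. The Stat2 region, in its own intron, averaged 0.978 ± 0.255, and the Irf9 region, in an intron of Ipo4, averaged 1.82 ± 0.410 (SD, n = 4). A region 17891 bp upstream of Stat3 held a further match, covered in 3 libraries, and the Socs3 5' end region one covered in all 4. CTCF letters were held by 3 of 31 distal regions and 13.0% of all recurrent distal regions, and by 1 of 19 promoter regions and 1.20% of all recurrent promoter regions, within 200 bp at the centre. The motif was added to the search after the data were seen.

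Across the distal regions other motif shares were low in number. Within 200 bp at the centre, AP-1 letters, TGANTCA, were held by 5 of 31 and by 8.54% of all recurrent distal regions, and RUNX letters, TGTGGTT, by 0 of 31 and 9.85%. Over the whole regions, which differ in width, AP-1 letters were found in 7 of the 31 and RUNX letters in 3. None of the AP-1 matches was covered by a footprint. Counts of this size describe these loci and were not tested.

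The 8 loci held 108 recurrent footprints, of which 107 lay in recurrent regions, with a median width of 22.5 bp. Of the 50 recurrent regions, 40 held at least 1, and of the 31 distal regions, 23 did. No share over all recurrent regions is given here, so these counts do not show whether the loci differ from others. The promoter regions of Stat3, with 7, Ifnar1, with 6, and Ifngr1, with 5, held more than those of Ifnar2, with 2, and Ifngr2, with 1. Single libraries had from 8 footprints in the Ifngr2 and Stat2 loci of replicate 4 to 49 in the Ifnar2 locus of replicate 3.

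Of 53 annotated start positions of the 8 genes, 25 had a recurrent region within 100 bp and 27 had no peak within 100 bp in any library. Within 1 kb, 36 of the 53 had a recurrent region. No share over the starts of all genes is given here, so these counts describe the 8 genes alone. A start without a peak was not always without bases of low FDR. At Ifnar1-202, 26 bp from the gene's 5' end, all 201 bases within 100 bp had an FDR below 0.05 in all 4 libraries. Of the 25 positions more than 1 kb from the gene's 5' end, 4 had one and 21 none. The 4 are the starts of Stat3-210 and Stat3-213, of the Stat2 retained-intron transcript Stat2-208, and of the Ifngr2 processed transcript Ifngr2-203. Starts that share a region cannot be told apart by a peak.

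Of 26 other genes of the pathway, 20 had a recurrent promoter region, or 20 of 26 against 50.3% of all genes, and their median promoter signal was 2.66. The highest were Pias4, a SUMO ligase that restrains STAT signalling, with 13.8, 16.1, 24.2 and 17.0 in replicates 1 to 4, Jak1, a kinase used by both interferon receptors, with 10.1, 13.2, 19.2 and 10.8, the phosphatase gene Ptpn2, with a mean of 10.3 ± 1.92, and Socs1, with a mean of 7.998 ± 1.36 (SD, n = 4). Among the genes that complete the complexes of the 8, Tyk2, the kinase on IFNAR1, averaged 6.27 ± 2.74, and Jak2, the kinase on IFNGR2, averaged 3.19 ± 0.749 (SD, n = 4).

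No recurrent promoter region was found at Ifnlr1, Il12rb1, Lifr, Pias1, Ptpn6 and Stat4. Ifnlr1, the interferon lambda receptor chain, had a peak only in replicate 4, of 0.692, and Il12rb1, a chain of the interleukin 12 receptor, had 0.658 in replicate 1 and 1.42 in replicate 3. For Stat4, which transmits interleukin 12 signals, the 5' end of the gene had no peak, but a region 21.1 kb away, near the start of the coding transcript Stat4-201, had 3.21, 3.43, 5.27 and 3.12. The phosphatase gene Ptpn6 likewise had a region near Ptpn6-202, 5.56 kb from its 5' end, with a mean of 1.83 ± 0.437, and Pias1 one near Pias1-202, 7.04 kb away, with a mean of 10.8 ± 2.77 (SD, n = 4). With any annotated start counted, 23 of the 26 genes had a recurrent region. The share of all genes given above is for the gene's 5' end alone, and none is given for this wider rule.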

How the data were processed

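Peaks, footprints and bases of low false discovery rate (FDR) were given for each of 4 NK cell DNase-seq libraries, all in 1 group. Each file was made by the authors from the filtered mm10 alignments of 1 library, per the deposited readmes. The sources used here do not name the aligner, peak caller or footprint caller. The authors deposited 1 signal value a peak, in an unstated unit; read depth is unknown, so no counting interval is given. Deposited FDR values, below 0.05, were read as adjusted p-values, and footprints carry a constant of 0.01.

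The longer peak list was used. Peaks sharing or touching 1 bp or more were merged across libraries, regions near several of the 8 genes were assigned to the nearest gene body, and gene positions came from GENCODE vM21. Sequence came from RefSeq GRCm38.p6, which is mm10. Scripts used Python 3.11.15, numpy 2.4.6, pysam 0.24.0 and samtools 1.23.1, and were tested on simulated data. The members, lists and motifs were chosen with earlier results of these data known. Named besides the 8 genes were pathway genes with the 4 highest signals or no recurrent promoter region, genes whose promoter lies in a locus, and the 2 strongest distal regions a locus; Tyk2, Jak2, the other Stat3 intron region and motif sites were chosen after their values were seen. Alternatives changed the peak list, library minimum, windows, flanks and overlap rules, and left out each library. Some genes and 1 sequence are not reported here.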

Additional observations from a re-analysis of the deposited data

Results flagged for a closer look

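In each comparison of 57 sets of 4 library values, the gap of the highest or lowest library to its nearest neighbour, divided by the whole range, was set against Dixon's critical value for 4 samples at the 95% level. Chance flags about 1 in 20 such sets, and 6 stood out. In 4 of them replicate 3 was high: the region 5992 bp upstream of Ifnar2 (0.963), the region 14011 bp upstream of Ifngr1 (0.850), the Stat3 intron region 5289 bp from the 5' end (0.922), and a region in an intron of Pgs1, 21884 bp upstream of Socs3 (0.906), with 1.74, 1.55, 3.55 and 1.73 in replicates 1 to 4. Replicate 3 also had the most peaks, 69168, and the highest summed signal of NK markers, 65.5, and their part in these values was not tested. In the distal Irf9 region replicate 4 was low (0.933), with 2.00, 2.05, 2.03 and 1.21. In the Stat2 locus, replicate 2 had 4 peaks where each other library had 3, a gap equal to the whole range of 1. Any set with 3 equal counts and 1 other is flagged in this way, so the rate of 1 in 20 does not apply to it.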

How the results depend on the processing

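Of 79 recomputed counts and medians, 69 stayed within 1.5 times the reported count or within 1 SD of the reported median, and 10 did not. Counting regions of at least 1 library gave 96 regions, 65 distal regions, 409 footprints and 83 footprinted regions, and requiring all 4 libraries gave 63 footprints and 26 footprinted regions. The gene body alone held 14 regions, 7 distal regions, 21 footprints and 12 footprinted regions, since it covers less sequence. Leaving out each library, with 2 of the other 3 required, gave 8 accessible promoters each time, 20 to 21 pathway genes, 52 to 61 regions, 32 to 41 distal regions and 124 to 158 footprints. Of 22 recomputed log2 ratios within the 3 gene pairs, 22 kept their sign; the Ifngr1 to Ifngr2 ratio could not be computed with the shorter list or the 500 bp window, where a library had no Ifngr2 peak. Unknown read depth and scale limit comparison of levels between libraries, and 4 libraries limit each permutation test to p = 0.125.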
